A study of Homo sapiens with 124 samples.

Results

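The 10 genes described here encode type II classical cadherins: CDH18, CDH12, CDH10, CDH9 and CDH6 on chromosome 5, CDH8 and CDH11 on chromosome 16, and CDH20, CDH7 and CDH19 on chromosome 18. They were taken by position, as the 100 kb bins that overlap their hg19 gene bodies, which gave 48 bins, or 219 bins together with the flanks of 1 Mb on either side, out of 26426 usable bins. The 10 genes were selected on the lamina contact frequencies of these same cells, which were known when the genes were proposed. Their contact values are therefore descriptions, and no test was made on them. The rule sets no limit on a value, so there are no members just inside or just outside one.

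Cadherins are adhesion proteins of the cell surface that bind calcium and join cells by pairing with cadherins on the neighbouring cell. Type II members are known from the nervous system, where different neurons carry different sets of them, and from the kidney, bone and neural crest. Their genes are usually silent in blood cells, and in many cell types silent genes in gene-poor DNA often lie in lamina-associated domains, the stretches of chromatin that touch the protein mesh under the nuclear envelope.

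The cells were KBM7, a near-haploid human line derived from a chronic myeloid leukaemia, and all were haploid (1N) cells of a single clone, clone 14. They expressed LaminB1, a protein of the nuclear lamina, fused to the bacterial methyltransferase Dam, which methylates adenine in the motif GATC on DNA close to it. Per the labels' protocols, Dam methylation was induced with Shield1 at 0.5 nM for 15 h, the smallest 2% of the cells that carried both Fucci cell cycle markers were sorted 1 per well, and fragments cut by DpnI were amplified with 21 extension steps. The labels give 1 group of 124 cells with no control group, and name no separate cultures. The 118 cells with a column in the table were analysed, and SDs over cells measure the spread between these cells, which may be technical. RNA was not measured in these samples, so the silence of the genes in this line was not checked.

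A value in the table is a ratio of observed to expected reads for 1 bin in 1 cell, and a bin was in contact with the lamina in a cell if the ratio was at least 1. The share of a gene is the percentage of its bins in contact in a cell, and its contact frequency is the mean share over cells. Each cell had between 28372 and 385661 recovered reads (median 135782.5). The cells had 18.3% to 42.3% of all usable bins in contact, called the contact share of the cell, with a mean of 33.0% ± 5.47 (SD, n = 118). Sample numbers from 96 to 124 held 28 cells and numbers from 1 to 94 held 90 cells. The mean contact share was 36.5% for cells 96 to 124, against 31.9% for cells 1 to 94. The median depth was 161506 reads for cells 96 to 124, against 133746.5 reads for cells 1 to 94. The labels do not name these sets as groups or batches, so both are given below, and the reason why they stand apart was not tested. No 2 columns held identical values (0 pairs).

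The order of the genes along the chromosomes was compared with the label of gene deserts. In the RefSeq annotation of GRCh38.p14, used here for names and order only, no protein-coding gene lies between CDH18 and CDH12, between CDH10 and CDH9, between CDH8 and CDH11 or between CDH7 and CDH19 (0 in each case). PRDM9, which places the sites of meiotic recombination, is the 1 protein-coding gene listed between CDH12 and CDH10. Between CDH9 and CDH6 there is also 1, an entry without a gene name. CDH20 and CDH7 are parted by 20 protein-coding genes, among them PIGN, an enzyme of GPI anchor synthesis, and TNFRSF11A, the receptor RANK. The name of gene deserts thus holds for the stretches within each chromosome's group except that from CDH20 to CDH7.

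The cadherin genes were in contact with the lamina in most cells. Their shares averaged 76.7% ± 17.1 over the 10 genes (SD, n = 118 cells), and 21 of their 48 bins (43.75%) reached a frequency of 80%. Over all usable bins this share was 15.1%, over chromosome 5 it was 17.4%, over chromosome 16 it was 4.56% and over chromosome 18 it was 21.3%. With the flanks, 99 of 219 bins (45.2%) reached 80%. Since the genes were proposed from the same readout, nothing is read from the gap between these shares. The plot of frequency by position shows where the genes stand in these stretches.

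**Figure D1:**
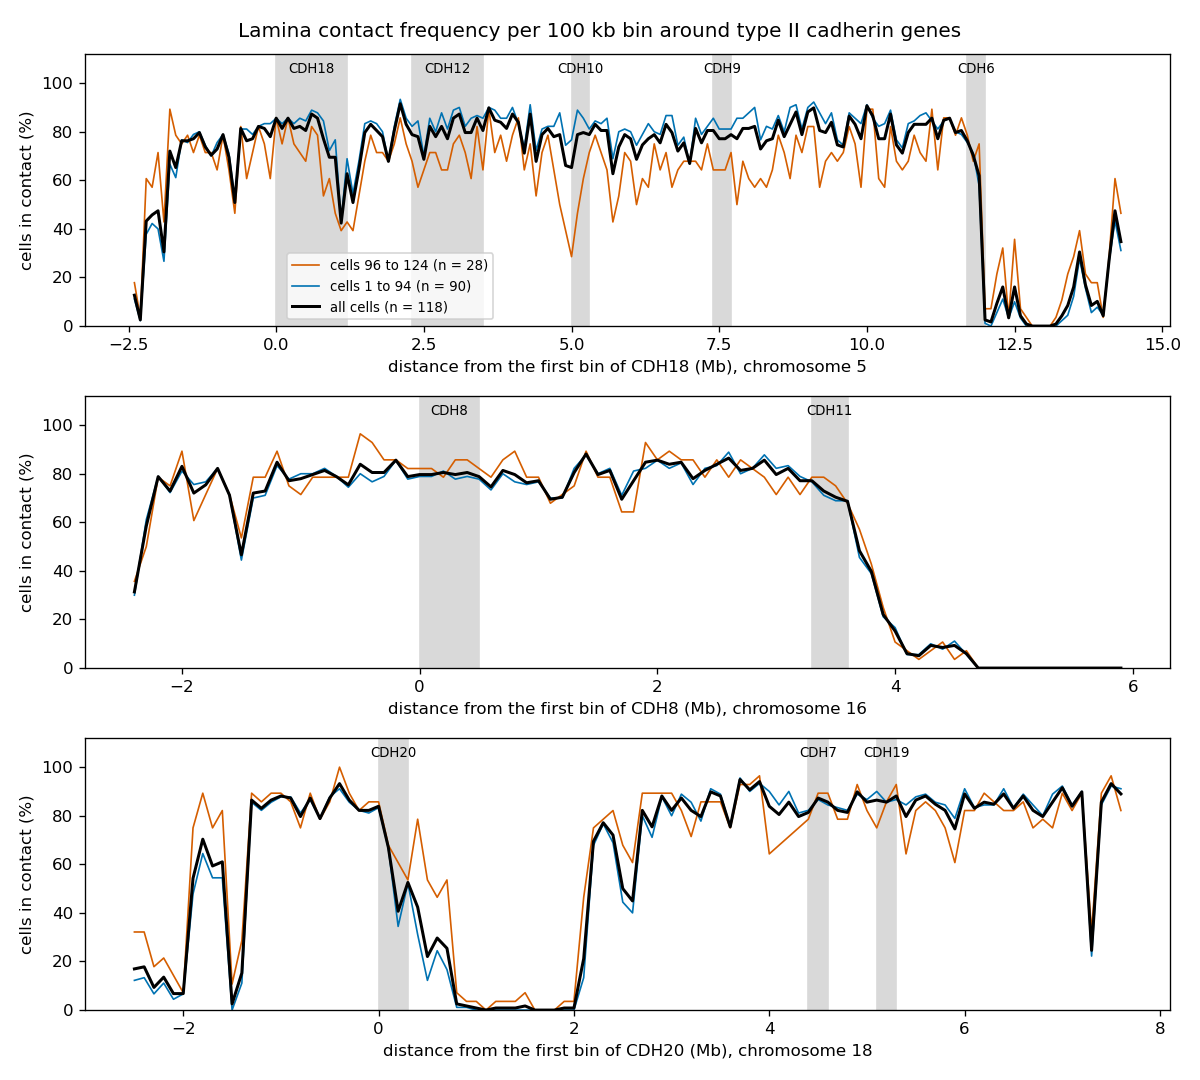
Share of cells (%) in which each 100 kb bin was in contact with the lamina, against the distance in Mb from the first bin of the first gene of each chromosome, with genes shaded, for cells 96 to 124 (orange, n = 28), cells 1 to 94 (blue, n = 90) and all cells (black, n = 118). Over all cells, CDH6, CDH11 and CDH20 stand where high frequencies end, with 5.42%, 23.2% and 17.8% in the 1 Mb beyond them. CDH18 ends in a dip of 42.4%. CDH12, CDH10, CDH9, CDH8, CDH7 and CDH19 lie within long stretches of high frequency.

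CDH18, CDH12, CDH10 and CDH9 follow each other along the short arm of chromosome 5, and all 4 are known from neurons of the brain. CDH18 covers 12 bins (hg19 chr5:19400001-20600000) and had a contact frequency of 77.3% ± 26.0 (SD, n = 118), with a lowest share of 0, a median of 83.3% and a highest of 100%. On the ratio scale its mean over bins ran from 0 through a median of 2.03 to a highest value of 5.91. CDH18 was in contact over more than 50% of its bins in 100 cells, over all bins in 28 cells and over none in 3 cells. Its frequency was 68.5% in cells 96 to 124, against 80.1% in cells 1 to 94.

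The contact of CDH18 was uneven along the gene. The 8 bins from 19400001 to 20200000 were in contact in 80.5% to 87.3% of the cells. The next 3 bins had 77.1%, 69.5% and 69.5%, and the last bin, from 20500001, had 42.4%. This bin holds the end from which CDH18 is transcribed, since the gene lies on the minus strand. It was the lowest bin of CDH18 in both sets, with 39.3% (cells 96 to 124) and 43.3% (cells 1 to 94). Over all cells, an unbroken stretch of bins at 60% or more ran for 1.7 Mb up to position 20500000 and ended at this dip. In cells 96 to 124 the bin from 20400001 already had 46.4%. The bins after CDH18 had 62.7% and 50.8% over all cells, and from 20800001 onward bins at 60% or more followed each other again.

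CDH12 also covers 12 bins (chr5:21700001-22900000), and its frequency was 80.2% ± 26.8 (SD, n = 118), with shares from 0 through a median of 91.7% to 100%. The ratio of CDH12 had a lowest value of 0, a median of 2.1 and a highest of 6.25. CDH12 differed from CDH18 in that its bin at the transcribed start was among its higher ones, with 85.6%. Its lowest bin, at 68.6%, was inside the gene but rests on few reads. In that bin a ratio of 1 stood for 2.37 reads in the median cell, and 18 cells had no read. In the bin at the start a ratio of 1 stood for 6.41 reads, and 6 cells had no read. Its frequency was 69.0% in cells 96 to 124, against 83.7% in cells 1 to 94.

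CDH10 (chr5:24400001-24700000, 3 bins) had a frequency of 74.6% ± 35.0 (SD, n = 118), with a median share of 100%, and was in contact over all bins in 67 cells and over none in 15 cells. Its ratio had a lowest value of 0, a median of 1.84 and a highest of 4.84. CDH10 was the gene with the widest gap between the sets of cells, with 45.2% in cells 96 to 124 against 83.7% in cells 1 to 94. More than 50% of its bins were in contact in 13 of 28 cells 96 to 124 (46.4%, exact Clopper-Pearson 95% interval 27.5% to 66.1%) and in 81 of 90 cells 1 to 94 (90.0%, interval 81.9% to 95.3%). These intervals cover the counting of cells only. They did not overlap, but CDH10 was picked for its gap, the widest of all the genes, after the values were seen. The labels do not name the sets as groups, so the intervals are not a test between them. The gap was present in each of its bins, at 28.6% against 76.7% in the first bin, 46.4% against 88.9% in the second and 60.7% against 85.6% in the last.

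CDH9 (chr5:26800001-27100000, 3 bins), which in the mouse is needed for particular synapses of the hippocampus, had a frequency of 78.2% ± 31.5 (SD, n = 118). Its median share was 100%, and its ratio ran from 0 through a median of 1.81 to 6.05. The bins of CDH9 were alike, at 80.5%, 77.1% and 77.1%. Its frequency was 64.3% in cells 96 to 124, against 82.6% in cells 1 to 94, so that all 4 of these genes were less often in contact in cells 96 to 124. Chromosome 5 as a whole was in contact to 38.9% in cells 96 to 124, against 38.2% in cells 1 to 94.

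**Figure D2:**
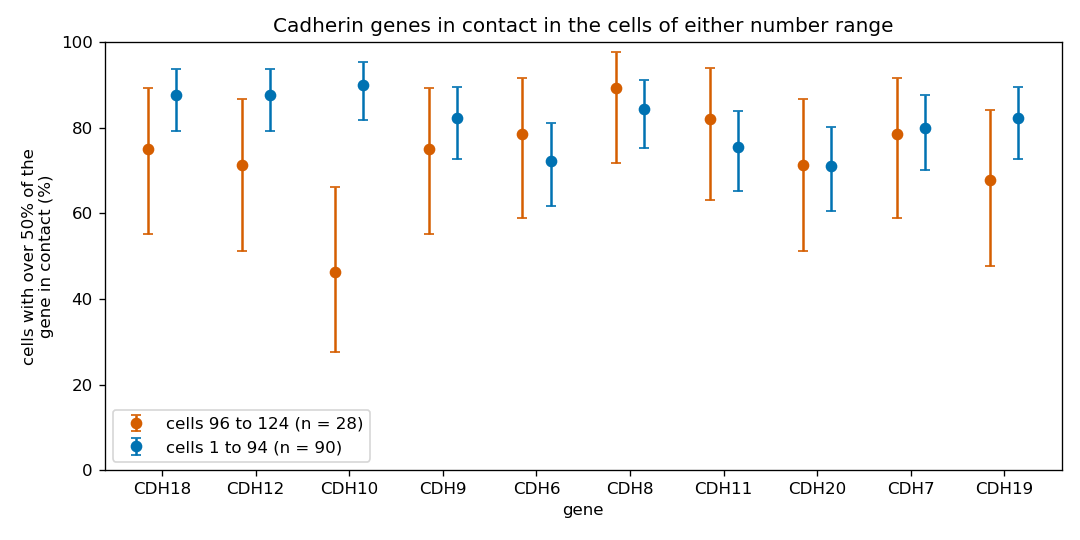
Share of cells (%) with more than 50% of a gene's bins in contact, for each gene in cells 96 to 124 (orange, n = 28) and cells 1 to 94 (blue, n = 90), with bars for exact 95% Clopper-Pearson intervals. CDH10 is the gene with the widest gap, at 46.4% (cells 96 to 124) and 90.0% (cells 1 to 94). The bars cover the counting of cells only and are not a test between the sets.

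The starts of the genes were read from RefSeq's promoter windows, here the 250 bases before the start, for 8 of the 10 genes. They are shown because Dam methylates, and DpnI cuts, only at GATC. None of CDH18, CDH12, CDH10, CDH9, CDH20 and CDH19 holds GATC in its window, CDH7 has it 1 time and CDH8 2 times, and of all 35116 promoters of this length 35.8% hold it. The motif reads the same on both strands. In the first pair below, the neighbours CDH10 (GRCh38.p14 chr5:24644979-24645228, minus strand) and CDH9 (chr5:27038587-27038836, minus strand), capitals mark the longest run of letters they share, of 12 bases.
CDH10: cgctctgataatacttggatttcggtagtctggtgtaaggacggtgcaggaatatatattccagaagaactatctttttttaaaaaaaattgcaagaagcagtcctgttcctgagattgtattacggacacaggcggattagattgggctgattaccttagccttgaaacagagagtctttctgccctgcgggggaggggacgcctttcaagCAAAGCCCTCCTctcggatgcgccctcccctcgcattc
CDH9: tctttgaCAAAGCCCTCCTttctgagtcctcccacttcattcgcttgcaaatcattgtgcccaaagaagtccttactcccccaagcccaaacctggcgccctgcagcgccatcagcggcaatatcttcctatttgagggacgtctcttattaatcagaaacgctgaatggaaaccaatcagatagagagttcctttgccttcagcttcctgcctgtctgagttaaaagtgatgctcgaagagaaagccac
In the other pair, CDH8 (chr16:62036439-62036688, minus strand) and CDH7 (chr18:65750002-65750251, plus strand), capitals mark GATC.
CDH8: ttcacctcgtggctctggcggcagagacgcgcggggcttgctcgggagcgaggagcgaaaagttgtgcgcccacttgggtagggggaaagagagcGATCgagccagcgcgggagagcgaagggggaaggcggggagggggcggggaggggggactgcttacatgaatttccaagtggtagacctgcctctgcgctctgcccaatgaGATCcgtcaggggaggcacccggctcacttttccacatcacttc
CDH7: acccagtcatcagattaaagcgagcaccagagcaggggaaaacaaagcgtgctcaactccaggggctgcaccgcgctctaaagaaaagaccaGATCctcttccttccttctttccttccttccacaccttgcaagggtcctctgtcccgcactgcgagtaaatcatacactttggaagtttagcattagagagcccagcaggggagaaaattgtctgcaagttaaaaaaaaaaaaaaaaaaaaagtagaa
Over the 28 pairs of the 8 windows the median longest shared run was 8 letters, and CDH7 and CDH19 shared the longest, 14 times the letter a. The windows of CDH18, CDH12, CDH10, CDH9 and CDH20 had a GC content of 47.6% to 48.4%. That of CDH7 had 45.6%, that of CDH19 38.0% and that of CDH8 64.0%, with a median of 58.0% over all promoters. The contact values come from bins of 100 kb, far longer than these windows, and a match of letters is not a measured site.

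CDH6, known from the kidney and the early nervous system, lies at the end of the same stretch of chromosome 5 (chr5:31100001-31400000, 3 bins). Its frequency was 69.5% ± 37.9 (SD, n = 118), with a median share of 100%, all bins in contact in 61 cells and none in 20 cells. Its ratio ran from 0 through a median of 1.85 to 5.79. CDH6 had 73.8% in cells 96 to 124, against 68.1% in cells 1 to 94, the opposite order to its 4 neighbours.

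The end of contact at CDH6 was sharp. Its bins had 76.3%, 70.3% and 61.9%, and the next 2 bins had 2.54% and 1.69%, which are 3 and 2 cells. The 1 Mb at lower coordinates was in contact to 82.2% and the 1 Mb at higher coordinates to 5.42%, a difference of 76.8 ± 26.3 points (SD, n = 118). The lower side was the higher in 114 cells, the sides were equal in 4 cells, and in 0 cells was it the other way. The next protein-coding gene beyond CDH6 in the RefSeq order is DROSHA, the nuclear enzyme that makes microRNA precursors.

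In single cells the run of contact over CDH6 mostly stopped with the gene. Of the 83 cells in which the middle bin of CDH6 was in contact, the unbroken run of contact bins ended at the last bin of the gene in 64, before it in 17 and past it in 2. The run went at most 0.4 Mb past the gene. At its other end the run began before CDH6 in 69 of these cells.

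CDH8 and CDH11 lie next to each other on chromosome 16, where contact was rarer, with a mean of 18.2% ± 8.58 over its usable bins (SD, n = 118). CDH8, a cadherin of neurons, covers 5 bins (chr16:61600001-62100000) and had a frequency of 80.0% ± 30.6 (SD, n = 118), with a median share of 100%. Its ratio ran from 0 through a median of 2.00 to 5.55. The bins of CDH8 were almost equal, from 79.7% to 80.5%. Its frequency was 82.9% in cells 96 to 124, against 79.1% in cells 1 to 94, while the chromosome as a whole had 25.1% in cells 96 to 124, against 16.1% in cells 1 to 94.

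CDH11, the osteoblast cadherin of bone and connective tissue (chr16:64900001-65200000, 3 bins), had a frequency of 73.4% ± 33.9 (SD, n = 118), with all bins in contact in 63 cells and none in 12 cells. Its ratio ran from 0 through a median of 1.74 to 8.65. CDH11 had 77.4% in cells 96 to 124, against 72.2% in cells 1 to 94. Its lower side had 81.8% and its higher side 23.2%, a difference of 58.6 ± 27.9 points (SD, n = 118), with the lower side higher in 110 cells and the higher side higher in 1 cell.

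Contact beyond CDH11 fell off over several bins. The bins of CDH11 had 77.1%, 72.9% and 70.3%, and the next 6 bins had 68.6%, 48.3%, 39.8%, 22.0%, 15.3% and 5.93%. Of 86 cells with the middle bin in contact, the run went past CDH11 in 61, ended at its last bin in 8 and before it in 17, and the longest went 0.9 Mb past. The runs ended at different bins, but they did not make up the whole slope. The bin after CDH11 was in contact in 81 cells, while the run went past the gene in 61. The next protein-coding gene is CDH5, the cadherin of blood vessels and itself of type II, whose 2 bins were in contact in 0 of 118 cells, which allows a share of up to 2.54% (3 counts of 118).

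**Figure D3:**
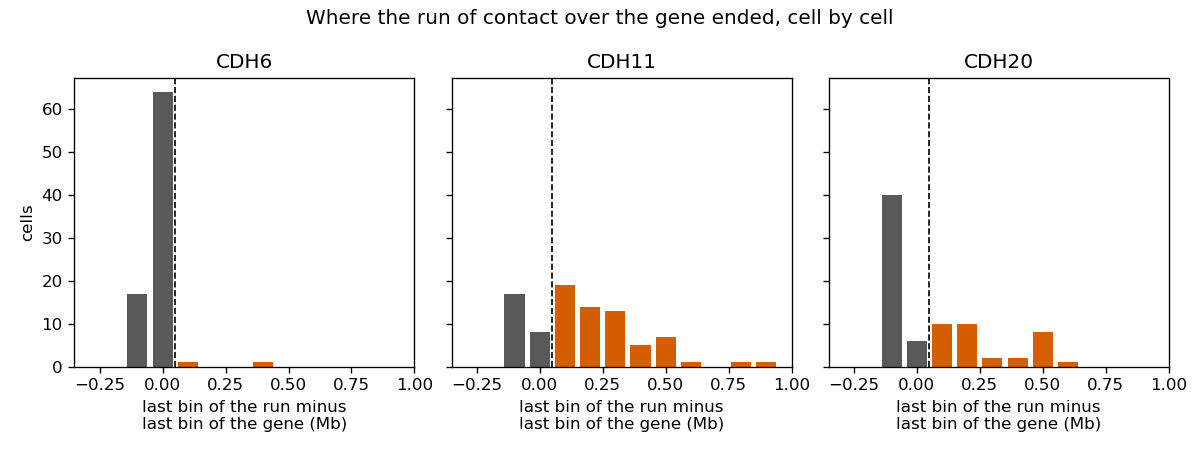
Number of cells by the distance in Mb between the last bin of the unbroken contact run over a gene and the last bin of the gene itself, for CDH6 (83 cells), CDH11 (86 cells) and CDH20 (79 cells), with runs that go past the gene in orange, right of the dashed line. For CDH6 64 runs end at the gene's last bin, while 61 runs over CDH11 and 33 over CDH20 go past it.

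CDH20, known from the nervous system, lies on chromosome 18 (chr18:59000001-59300000, 3 bins), apart from CDH7 and CDH19. It had the lowest frequency of the 10 genes, 63.8% ± 32.2 (SD, n = 118), and a median share of 66.7%, with all bins in contact in 37 cells and none in 13 cells. Its ratio ran from 0 through a median of 1.60 to 3.01. CDH20 had 71.4% in cells 96 to 124, against 61.5% in cells 1 to 94.

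Contact declined within CDH20 itself. Its bins had 83.9%, 66.9% and 40.7% from the transcribed start, which is on the plus strand, to the far end, and the bin after the gene had 52.5%. The lower side had 85.3% and the higher side 17.8%, a difference of 67.5 ± 24 points (SD, n = 118), with the lower side higher in 114 cells and the higher side higher in 1 cell. Of 79 cells with the middle bin in contact, the run ended before the last bin of CDH20 in 40, at it in 6 and past it in 33. The last bin of CDH20 had 60.7% in cells 96 to 124, against 34.4% in cells 1 to 94. Contact went further past the gene in cells 96 to 124. The bins that follow CDH20 had 53.6%, 78.6%, 53.6%, 46.4% and 53.6% in cells 96 to 124. In cells 1 to 94 the same bins had 52.2%, 31.1%, 12.2%, 24.4% and 16.7%.

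CDH7 and CDH19 had the highest frequencies. CDH7, known from the neural crest and its migrating cells in the chick, covers 2 bins (chr18:63400001-63600000) and had 84.3% ± 33.1 (SD, n = 118), with both bins in contact in 94 cells and neither in 13 cells. Its ratio ran from 0.0848 through a median of 2.19 to 11.8. CDH19, known in rodents from Schwann cell precursors, also covers 2 bins (chr18:64100001-64300000) and had 86.0% ± 29.2 (SD, n = 118), with both bins in contact in 93 cells and neither in 8 cells. Its ratio ran from 0 through a median of 2.07 to 11.1, and the highest value of CDH7 and of CDH19 came from the same cell, number 73, with 35034 reads. CDH7 had 83.9% in cells 96 to 124, against 84.4% in cells 1 to 94. CDH19 had 80.4% in cells 96 to 124, against 87.8% in cells 1 to 94.

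The ends of the genes had no common order. With the strand from RefSeq, the bin at the transcribed start was lower than the bin at the far end in 4 of 8 genes and higher in 4. In 5 of the 8 genes the ends differed by less than 10 points. CDH18 and CDH20 had the widest gaps, both of 43.2 points in size and of opposite direction, with 42.4% at the start and 85.6% at the far end of CDH18, and 83.9% at the start and 40.7% at the far end of CDH20.

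In order of contact frequency the genes ran CDH19, CDH7, CDH12, CDH8, CDH9, CDH18, CDH10, CDH11, CDH6 and CDH20. Neighbours in this order differed by 0.226 to 5.65 points, with SDs of their difference over cells from 27.6 to 48.2 points, so no neighbours differed beyond their spread. CDH19 at the top and CDH20 at the bottom differed by 22.2 ± 37.7 points (SD, n = 118), with CDH19 higher in 68 cells, CDH20 higher in 17 cells and both equal in 33 cells. Of all usable bins, 6.71% had at least the frequency of CDH19 and 28.5% at least that of CDH20.

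Most genes resembled their surroundings. The gene minus its flanks was 2.97 ± 15.7 points for CDH18, 1.37 ± 18.1 for CDH12, -2.37 ± 25.9 for CDH10 and 0.325 ± 19.5 for CDH9 (SD, n = 118). It was 1.06 ± 20.0 points for CDH8, -1.32 ± 24.3 for CDH7 and 2.02 ± 23.1 for CDH19. The means below 0 were not those of most cells. CDH10 was higher than its flanks in 58 cells and lower in 38, and CDH7 was higher in 55 and lower in 20. The genes at the ends of stretches stood higher than the mean of both flanks, by 25.7 ± 30.5 points for CDH6, 20.9 ± 25.0 for CDH11 and 12.3 ± 22.5 for CDH20. They lay between their 2 sides. CDH6 had 69.5%, between 82.2% and 5.42%. CDH11 had 73.4%, between 81.8% and 23.2%, and CDH20 had 63.8%, between 85.3% and 17.8%. For all 10 genes the difference from the flanks was smaller than its SD over cells.

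The stretches around the genes were long. A stretch of 10.6 Mb with every bin at 60% or more (chr5:20800001-31400000, mean 79.1%) held CDH12, CDH10, CDH9 and CDH6. One of 5.1 Mb (chr16:60200001-65300000, mean 79.2%) held CDH8 and CDH11, and one of 4.6 Mb (chr18:61700001-66300000, mean 84.9%) held CDH7 and CDH19. CDH20 sat at the end of one of 1.5 Mb (chr18:57700001-59200000, mean 84.0%), which left out its last bin. In cells 96 to 124 that bin had 60.7%. Of the 48 gene bins, 46 were at 60% or more, as were 30.7% of all usable bins, 37.1% of those on chromosome 5, 10.8% on chromosome 16 and 38.6% on chromosome 18.

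Within a cell the contact was broken into shorter runs. In the cells with the middle bin of the gene in contact, the median run over the gene was 1.3 Mb for CDH6, 1.5 Mb for CDH18 and CDH20, 1.55 Mb for CDH11, 1.7 Mb for CDH10, 2.1 Mb for CDH12, 2.2 Mb for CDH8, 2.3 Mb for CDH9, 2.7 Mb for CDH19 and 2.8 Mb for CDH7. The longest, of 10.4 Mb in cell 38, covered the middle bins of CDH12, CDH10 and CDH9. Runs were shorter in cells 96 to 124 for all 10 genes, for example 1.1 Mb for CDH12 in cells 96 to 124 against 2.5 Mb in cells 1 to 94, and 1.45 Mb for CDH7 in cells 96 to 124 against 3.2 Mb in cells 1 to 94. Run length also moved with depth. In the 109 cells with at least 50000 reads, the mean run per cell was 1.30 Mb after thinning to 50000 reads, against 2.46 Mb with all their reads.

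A single unbroken run seldom reached from a gene to the next one, except between CDH7 and CDH19. A run was broken by any 1 bin out of contact. With gaps of 1 bin bridged the mean run was 5.51 Mb, against 2.34 Mb, and the counts below are of unbroken runs only. The middle bins of CDH7 and CDH19 are 0.8 Mb apart, against 2.2 to 4.3 Mb for the other neighbours. They were both in contact in 88 cells, and in 64 of these the same run held both. The corresponding counts were 26 of 81 cells for CDH12 and CDH10, 21 of 74 for CDH8 and CDH11, and 17 of 78 for CDH10 and CDH9. They were 9 of 85 for CDH18 and CDH12, and 8 of 68 for CDH9 and CDH6. For CDH20 and CDH7 it was 0 of 71 cells, and 56.4% of the bins between them were in contact in those cells, against 84.8% to 95.3% for the other neighbours.

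In most cells at least 8 of the 10 genes were in contact. The number of genes with more than 50% of their bins in contact was 2 in the lowest cells, 8 in the median and 10 in the highest, with a mean of 7.95 ± 2.00 (SD, n = 118). All 10 genes were in contact in 31 cells, of which 1 was among cells 96 to 124 and 30 among cells 1 to 94. At least 8 genes were in contact in 77 cells and 5 or fewer in 16 cells. The map of shares by cell shows these cells as rows.

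**Figure D4:**
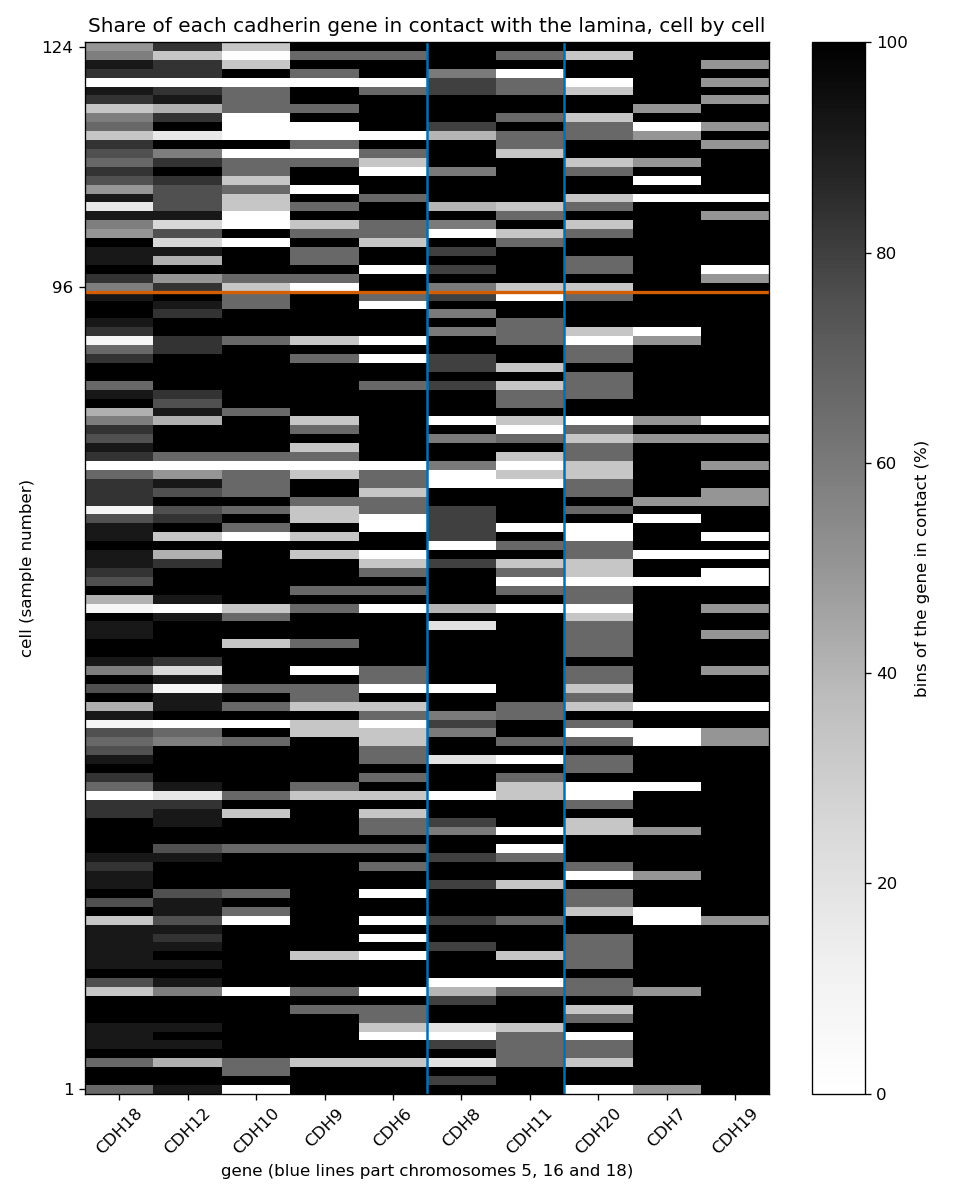
Share of each gene's bins in contact (%, white 0 to black 100) in each of 118 cells, with cells in order of sample number from 124 at the top to 1 at the bottom, an orange line between cells 96 to 124 and cells 1 to 94, and blue lines between the chromosomes. White rows that cross several columns of chromosome 5 are cells in which several of these genes had no bin in contact, such as cell 119.

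The mean share over the 10 genes was lowest at 24.3% in cell 74 and 29.7% in cell 119, had a median of 79.5%, and exceeded the cell's contact share over all usable bins in 116 of 118 cells. In cell 74 and in cell 119 all 5 genes on chromosome 5 were at 0, while both bins of CDH7 were in contact and CDH19 was at 50.0%. In cell 74 CDH8 was at 60.0%, CDH20 at 33.3% and CDH11 at 0. In cell 119 CDH8 was at 80.0%, CDH11 at 66.7% and CDH20 at 0. Cell 119 had 135954 reads and a contact share of 36.7%, above the mean of all cells. Cell 74 had 95269 reads and a contact share of 26.7%.

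The genes on chromosome 5 often shared their state. CDH18, CDH12, CDH10 and CDH9 were all in contact over more than 50% of their bins in 73 cells, of which 8 were among cells 96 to 124 and 65 among cells 1 to 94. Exactly 3 of them were in contact in 18 cells, 2 in 19 cells, 1 in 4 cells and 0 in 4 cells. CDH6 was in contact in 60 of the 73 cells with all 4, and in 0 of the 4 cells with none. The whole span from CDH18 to CDH9 (chr5:19400001-27100000, 7.7 Mb) was in contact to 0 in the lowest cell, 85.7% in the median cell and 100% in the highest, to under 20% in 5 cells and to over 90% in 51 cells. Its mean was 66.3% ± 23.1 in cells 96 to 124 (SD, n = 28), against 81.1% ± 21.5 in cells 1 to 94 (SD, n = 90).

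Joint contact was described by Pearson's r over the 118 cells between the shares of 2 genes, with each cell's contact share regressed out first. The cells share library preparation and differ in depth, so r is given as a description with no p. The 14 pairs on the same chromosome had a mean r of 0.358 ± 0.159 (SD over pairs), from 0.0912 to 0.579. All 14 were above 0 over all cells, but CDH20 and CDH7 had -0.142 within cells 96 to 124. The 31 pairs on different chromosomes had a mean of 0.0502 ± 0.0942, from -0.203 for CDH8 and CDH7 to 0.201 for CDH12 and CDH8, with 24 above 0. Within cells 96 to 124 the means were 0.266 and 0.0279 for the same and for different chromosomes, and within cells 1 to 94 they were 0.332 and 0.0183.

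**Figure D5:**
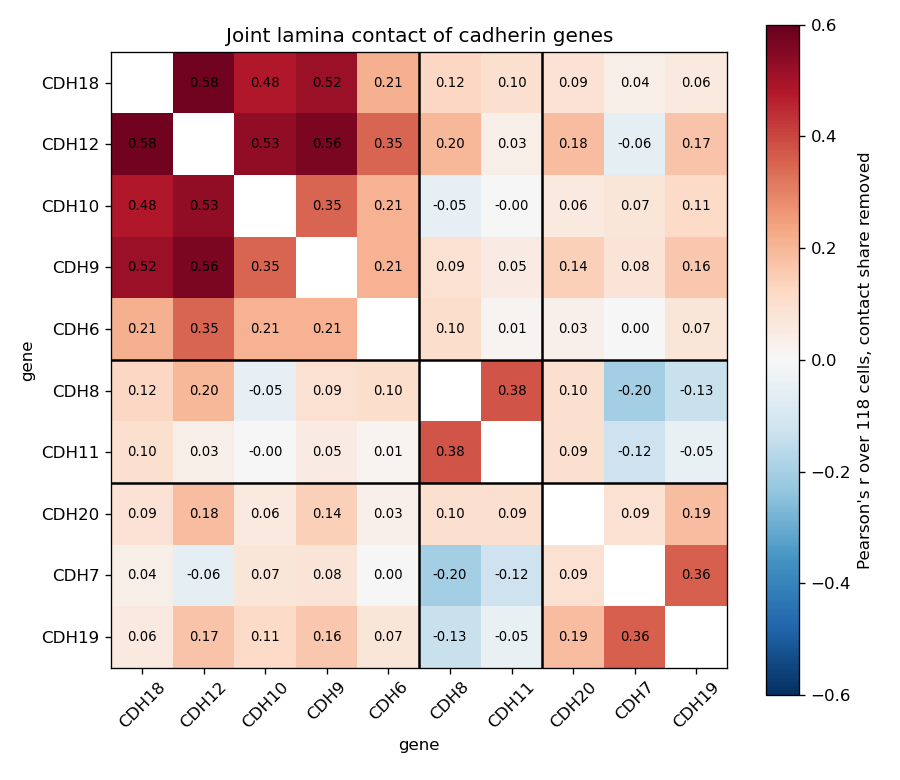
Pearson's r over 118 cells between the shares of each pair of cadherin genes, with the contact share of the cell removed, on a colour scale from -0.6 (blue) to 0.6 (red), with black lines between chromosomes 5, 16 and 18. The 6 pairs of CDH18, CDH12, CDH10 and CDH9 have a mean of 0.503, while pairs on different chromosomes lie between -0.203 and 0.201. Within cells 96 to 124 the mean of the 6 pairs is 0.417, and within cells 1 to 94 it is 0.405.

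Among CDH18, CDH12, CDH10 and CDH9 the 6 pairs had a mean r of 0.503 over all cells. Within the sets it was lower, at 0.417 in cells 96 to 124 and 0.405 in cells 1 to 94. CDH18 and CDH12, 1.1 Mb apart, had 0.579, and CDH12 and CDH9, 3.9 Mb apart, had 0.564. CDH12 was in contact in 99 cells, and CDH9 was in contact in 88 of these (88.9%) and in 7 of the other 19 (36.8%). CDH10 and CDH9 had the lowest value of the 6, 0.349, or 0.241 within cells 96 to 124 and 0.148 within cells 1 to 94. CDH6 had a mean r of 0.245 with these 4, and 0.351 with CDH12 alone.

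On the other chromosomes distance and r did not follow 1 order. CDH8 and CDH11, 2.8 Mb apart, had 0.379, or 0.536 within cells 96 to 124 and 0.349 within cells 1 to 94. CDH7 and CDH19, only 0.5 Mb apart and mostly in 1 run, had 0.361, or 0.210 within cells 96 to 124 and 0.398 within cells 1 to 94. CDH20 is parted from CDH7 and CDH19 by the stretch that was rarely in contact. With CDH7 it had 0.0912, or -0.142 within cells 96 to 124 and 0.143 within cells 1 to 94. With CDH19 it had 0.187, or 0.0072 within cells 96 to 124 and 0.235 within cells 1 to 94. Averaged over the genes of each chromosome, r was 0.0977 between chromosomes 5 and 16, 0.158 between 5 and 18 and -0.101 between 16 and 18.

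Windows of 1 Mb on other chromosomes were ranked by r over the same 118 cells with the chromosome 5 cadherins, and the 3 highest of 2435 windows were chr4:162000001-163000000 with 0.453, chr3:83000001-84000000 with 0.443 and chr4:131000001-132000000 with 0.439. The median of all these windows was -0.0595. For CDH8 and CDH11 the highest were chr4:66000001-67000000 with 0.297, chr11:21000001-22000000 with 0.290 and chr4:67000001-68000000 with 0.281. For the chromosome 18 cadherins they were chr12:81000001-82000000 with 0.376, chr12:78000001-79000000 with 0.374, and the window from 8000001 to 9000000 of the sequence that joins chromosomes 9 and 22, with 0.369. They are the highest of many windows, and no test was made of them. These r pool both sets of cells and are not given within each. The chromosome 5 cadherins averaged 64.2% in cells 96 to 124, against 79.6% in cells 1 to 94.

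Other cadherins were measured in the same cells, at positions known only to 0.1 Mb. The mean share was 76.7% ± 17.1 in the 10 genes, against 13.3% ± 6.11 in 9 other cadherins (SD, n = 118), whose median was 0.424%. The mean of the 10 was the higher in 118 of 118 cells, by 63.5 ± 16.7 points (SD, n = 118). Both lists were set with contact values of these cells known, so nothing is read from this gap or count. Of the type II cadherins outside these stretches, CDH5 and CDH22 were in contact in 0 of 118 cells and CDH24 had a frequency of 0.424%. The type I cadherins CDH3, the P-cadherin of epithelia, and CDH15, the M-cadherin of muscle, had 0, and CDH1, the E-cadherin of epithelia, had 0.847%. CDH4, the retinal cadherin, had 3.03% ± 11.0 (SD, n = 118).

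CDH2 and CDH13 stood nearer to the 10 genes. CDH2, the N-cadherin of neurons and heart muscle, also on chromosome 18, had 73.4% ± 33.9 (SD, n = 118), with 69.0% in cells 96 to 124 and 74.8% in cells 1 to 94. CDH13, a cadherin held in the membrane by a GPI anchor and lying on chromosome 16, had 41.6% ± 37.8 (SD, n = 118), with 64.3% in cells 96 to 124, against 34.5% in cells 1 to 94. The other 7 of the 9 were below 10%.

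Depth moved with the contact of the genes. In the 59 cells with more reads the mean share of the 10 genes was 83.7% ± 14.2 (SD, n = 59), against 69.8% ± 17.1 in the 59 cells with fewer reads (SD, n = 59), and the contact share of the cells was 36.8% against 29.1%. The gap was wide for CDH20, at 78.5% against 49.2%, and for CDH7, at 96.6% against 72.0%, and small for CDH12, at 83.3% against 77.1%. In the 109 cells with at least 50000 reads, the mean of the 10 genes was 71.7% after thinning to 50000 reads, against 78.8% with all their reads. After thinning it was 57.8% for CDH20, against 67.6% with all reads, and 78.0% for CDH7, against 85.8%. The median reads behind a gene in a cell ranged from 24.5 for CDH19 to 136.5 for CDH18, so that a share of the small genes rests on few reads.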

How the data were processed

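The authors deposited 1 table with the ratio of observed to expected reads per bin of 100 kb and cell. What the expected part rests on was not given in the sources used here. Per the submitters' processing notes, reads were handled with Bowtie2 2.1.0, cutadapt and build hg19, named without settings. Samples 33, 34, 44, 86, 95 and 120 were not analysed here. A profile of unfused Dam was not used here.

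Bins with a missing value in any cell, or at 0 throughout, were left out. Whole reads were recovered from the deposited ratios: to a tolerance of 0.02 reads, 100% of 1697706 values above 0 came out whole. Intervals are exact Clopper-Pearson at 95%, and the limit for a count of 0 is 3 counts of the total. Without molecular identifiers, both cover counting error only.

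The members and lists were chosen with earlier results of these data known. All 10 members and 9 other cadherins were named, with the 3 most alike windows per chromosome. hg19 positions of the other cadherins came from general knowledge, rounded to 0.1 Mb. Flanks left out bins of any member. Alternatives were contact values of 0.5, 1.5 and 2, thinning, sets of cells, deeper cells, bins wholly within genes, flanks of 0.5 and 2 Mb, bridged gaps, and other forms of r. The steps were tested on simulated data (2000 bins, 40 cells). Python 3.11.15, numpy 2.4.6, pandas 2.3.3, scipy 1.17.1 and matplotlib 3.10.9 were used.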

Additional observations from a re-analysis of the deposited data

How the results depend on the processing

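Of 151 values of 16 results under alternatives, 138 moved by less than 1 SD over cells (over pairs, for r), 12 moved by more and 1 changed sign. The SD over cells is wide, so a value counted as moved by less can still lie far off. CDH10 was counted so at 45.2% in cells 96 to 124, against 74.6% ± 35.0 in all cells (SD, n = 118). At a contact value of 2 the frequency of the gene bodies was 44.6% (76.7% at 1), that of the other cadherins 6.82% (13.3% at 1) and the mean run 0.722 Mb (2.34 Mb at 1), and the mean r between chromosomes changed sign, to -0.00402 (0.0502 at 1). The mean run was 4.68 Mb at a contact value of 0.5 and 5.51 Mb with gaps of 1 bin bridged. The alternative of bins wholly within the gene was not run for the run of contact, which is set by the middle bin, or for the other cadherins, whose positions are rounded to the bin. That of the 109 cells with at least 50000 reads, not thinned, was added after seeing the data. Of the 10 genes, 7 moved by over 1 SD, each at a contact value of 2. The cause of the change in sign was not tested. The mean r on the same chromosome stayed between 0.248 and 0.413 under every alternative run, and gene minus flanks between 2.78 and 8.28 points.

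No paired analysis was possible because the labels give 1 group. In 14 cells a ratio of 1 stood for under 3 reads in the median bin, so that single reads decide contacts there, and without them the 10 genes averaged 79.9%. Bins of 100 kb do not resolve promoters, and genes of 2 or 3 bins take few values. How far DNA accessibility or the culture enters the values was not tested.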
